A study of Mus musculus with 9 samples.

Results

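The mitochondrial genome of the mouse carries its own small set of genes, and these are described here in mouse intestine after abdominal irradiation with and without lycopene. All 37 genes listed on chromosome MT were taken, of 54532 genes in the deposited expression table: 13 protein-coding genes (mRNAs), 2 ribosomal RNA (rRNA) genes and 22 transfer RNA (tRNA) genes. The 9 libraries of total RNA from intestine fall into 3 groups of 3. IR+LYC mice were gavaged with lycopene, a carotenoid of tomato, dissolved in corn oil at 10 mg/kg/day for 10 days, and received 12 Gy of radiation to the whole abdomen on day 4. IR mice received corn oil without lycopene and the same dose, and control mice received corn oil and no irradiation, so that all 3 groups carry the oil vehicle. A lycopene group without irradiation was not analysed here, and the labels give no strain, age, sex or gut segment. The labels do not state that each library is a separate animal, so the p-values measure only the spread between libraries.

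Mitochondria make most cellular ATP by oxidative phosphorylation, and the 13 mitochondrial mRNAs encode core subunits of its complexes: the mt-Nd genes for complex I (NADH dehydrogenase), mt-Cytb for complex III (the cytochrome b-c complex), the mt-Co genes for complex IV (cytochrome c oxidase) and mt-Atp6 and mt-Atp8 for complex V (ATP synthase). Both strands of the circular genome are transcribed into long precursors by the polymerase Polrmt with Tfam and Tfb2m. The tRNAs lie between the other genes and are cut out at their 5′ end by mitochondrial RNase P and at their 3′ end by Elac2, which also frees the mRNAs and rRNAs. The 2 rRNAs and 22 tRNAs serve only the ribosomes inside mitochondria, and every other subunit of the complexes is made from nuclear genes. Absorptive enterocytes and the smooth muscle of the gut wall are both rich in mitochondria.

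The tRNA genes are the members with the largest differences between groups, and 5 of them are printed 5′ to 3′ from the GENCODE M21 transcripts (GRCm38), with the anticodon in capitals. The first 3 lie side by side on the plus strand between mt-Nd4 and mt-Nd5, at MT:11546-11612 for mt-Th (histidine), MT:11613-11671 for mt-Ts2 (serine) and MT:11671-11741 for mt-Tl2 (leucine), and they are shown because mt-Th and mt-Ts2 were higher in IR than in control without overlap and mt-Tl2 was higher in IR+LYC than in IR without overlap. The other 2 lie on the minus strand: mt-Te (glutamate), at MT:14071-14139, is shown as a further tRNA that was highest in IR+LYC, and mt-Tp (proline), at MT:15356-15422, as the tRNA with most reads.
mt-Th: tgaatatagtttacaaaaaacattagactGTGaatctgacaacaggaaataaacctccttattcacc
mt-Ts2: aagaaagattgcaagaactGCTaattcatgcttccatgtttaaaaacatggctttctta
mt-Tl2: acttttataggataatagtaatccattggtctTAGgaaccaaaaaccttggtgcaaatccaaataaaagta
mt-Te: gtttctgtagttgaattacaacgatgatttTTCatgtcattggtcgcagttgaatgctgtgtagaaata
mt-Tp: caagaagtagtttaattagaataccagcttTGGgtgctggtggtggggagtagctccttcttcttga
The whole set runs from 59 bases, in mt-Ts2, which lacks the D arm of other tRNAs, to 75 bases in mt-Tl1. Such rows are shorter than the fragments that a standard library keeps, so a read on a tRNA row can also come from a precursor that reaches into its neighbours. The counting of reads that span 2 genes was not stated in the sources used here.

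The deposited unit is FPKM, the fragments of a gene per kilobase of its length, scaled to the depth of the library. In each library all values were whole multiples of the value of 1 read, within 0.01 read, which returned between 17803889 and 22414949 reads per library. The authors' divisor was 0.854 to 1.26 times these totals, so 1 FPKM is not the same share of reads in every library. IR+LYC replicate 2 stood apart: its rank correlation with IR+LYC replicate 1 was 0.874 across genes, against 0.957 to 0.981 within the other 2 groups. The enterocyte markers (12 genes, among them Fabp1 and Apoa1) summed to 1392, 26468 and 6674 FPKM in the IR+LYC libraries, 18968, 3872 and 23029.9 FPKM in the IR libraries and 28627, 21461 and 24838 FPKM in the control libraries. They were thus lowest in IR+LYC 1, IR 2 and IR+LYC 3, while IR+LYC 2 lay among the controls.

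Between 3.16% and 4.84% of all reads fell on mitochondrial genes, and nearly all of these on mRNAs. The mRNA share of reads was 3.67, 4.67 and 4.66% in the IR+LYC libraries, 3.55, 3.08 and 3.10% in the IR libraries and 4.0, 3.28 and 3.31% in the control libraries. All 3 IR+LYC libraries lay above all 3 IR libraries on this scale, while control libraries lay across both. On average 4.33% ± 0.572 of reads were on mitochondrial mRNA in IR+LYC, 3.24% ± 0.264 in IR and 3.53% ± 0.406 in control (SD, n = 3 each). Fewer cells of a type and less RNA per cell cannot be told apart in these bulk samples. The rRNA share of reads was 0.0805, 0.152 and 0.0807% in the IR+LYC libraries, 0.168, 0.0743 and 0.169% in the IR libraries and 0.225, 0.110 and 0.144% in the control libraries, and the 3 groups overlapped. The tRNA share of reads was 0.0108, 0.0153 and 0.00868% in the IR+LYC libraries, 0.00780, 0.00650 and 0.00819% in the IR libraries and 0.00883, 0.00616 and 0.00621% in the control libraries, highest in IR+LYC 2.

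**Figure D1:**
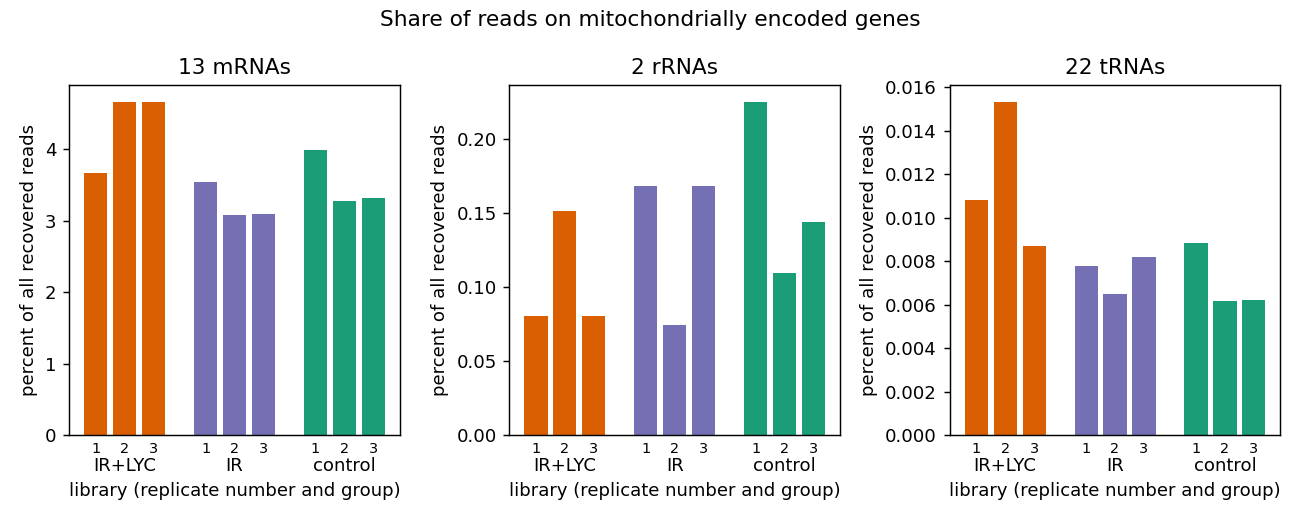
Share of all recovered reads (percent, linear axes from 0) on the 13 mitochondrial mRNAs, the 2 rRNAs and the 22 tRNAs, 1 bar for each library, with IR+LYC at the left, IR in the middle and control at the right of each panel. For mRNA the IR+LYC bars stand between 3.67% and 4.67%, above the IR bars at 3.08% to 3.55%.

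Levels per length differed between the mRNAs far more than between the groups. Highest was mt-Co1, the catalytic subunit of cytochrome c oxidase, with 8972, 16584 and 13314 FPKM in the IR+LYC libraries, 11798, 8551 and 10397 FPKM in the IR libraries and 14679.9, 11174 and 12495 FPKM in the control libraries. Next came mt-Cytb, the membrane subunit of complex III, with 4748, 7939 and 6976 FPKM in the IR+LYC libraries, 5402, 3983 and 4798 FPKM in the IR libraries and 6723, 5372 and 5482 FPKM in the control libraries. In both genes the 3 groups overlapped, with the highest value in IR+LYC 2 and the lowest in IR 2. Of the complex I genes, which form its proton-pumping membrane arm, mt-Nd1 averaged 4624 ± 1931 FPKM in IR+LYC, 3399 ± 452 FPKM in IR and 3824 ± 823 FPKM in control (SD, n = 3 each). For mt-Nd2 the means were 2444 ± 770.0 FPKM in IR+LYC, 1690.1 ± 261 FPKM in IR and 2201 ± 539 FPKM in control. For mt-Nd5 they were 1673 ± 828 FPKM in IR+LYC, 1177 ± 327 FPKM in IR and 1574 ± 304 FPKM in control. The order of levels was mt-Co1, mt-Cytb, mt-Nd1, then mt-Nd2 and mt-Nd4, which did not differ beyond their spread, then mt-Nd5.

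The gene mt-Nd6 is the only mRNA annotated on the minus strand, and its level was 458, 786 and 345 FPKM in the IR+LYC libraries, 490.2, 226 and 461 FPKM in the IR libraries and 863, 397 and 521 FPKM in the control libraries. The groups overlapped, and IR 2 was lowest and control 1 highest. Per length it reached 0.278 to 0.454 times mt-Nd5, which it overlaps by 14 bases end to end. Whether the counting used strand was not stated in the sources used here, so reads of mt-Nd6 and of opposite-strand RNA over the same bases cannot be told apart, and the same holds for the 8 tRNA genes on the minus strand. The highest genes varied little in their share of the mRNA pool: mt-Co1 held 46.9% to 52.3% of mitochondrial mRNA reads in the 9 libraries, mt-Cytb 16.6% to 19.8%, mt-Nd1 8.67% to 12.0% and mt-Nd4 7.42% to 7.99%. The widest of these ranges by ratio among the 6 highest genes was that of mt-Nd5, 5.24% to 8.77%, which was lowest in IR+LYC 3. The lower genes varied more by ratio, such as mt-Nd6 at 0.445% to 0.980% and mt-Co3 at 0.108% to 0.302%.

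**Figure D2:**
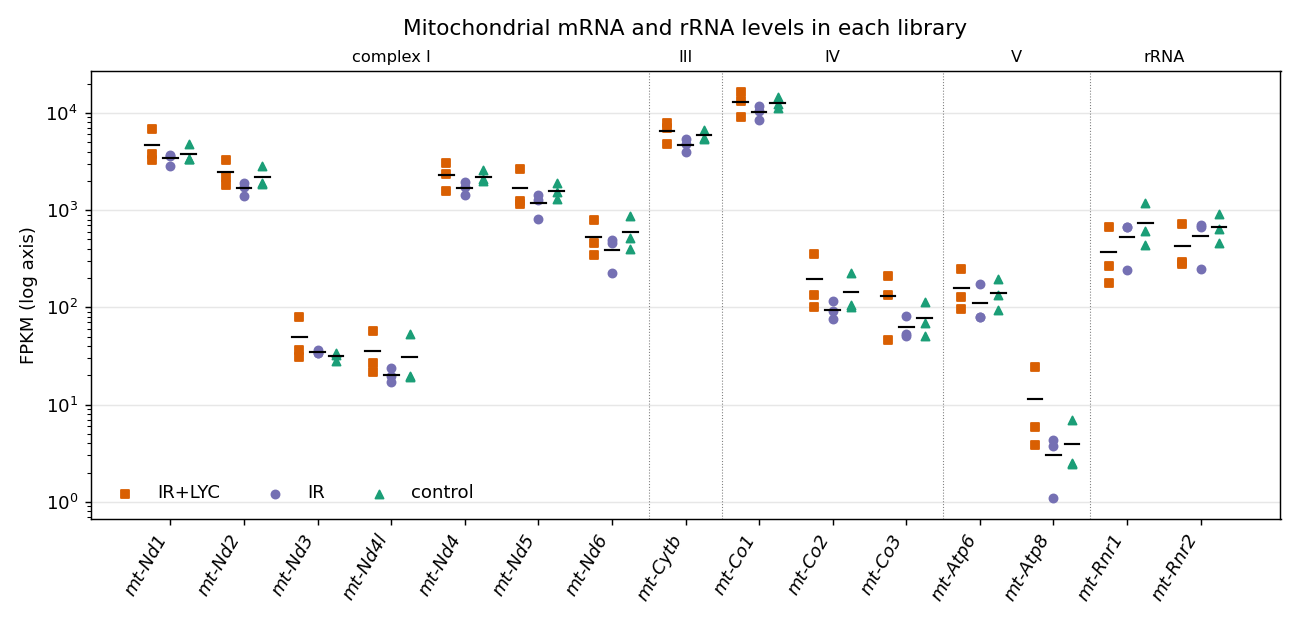
Level of each mitochondrial mRNA and rRNA (FPKM, log axis), 1 point for each library and a bar at each group's mean, with IR+LYC at the left, IR in the middle and control at the right of each gene and the complexes marked above. The genes lie between 1.09 FPKM (mt-Atp8, IR 2) and 16584 FPKM (mt-Co1, IR+LYC 2), a far wider range than that between groups within a gene.

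The remaining 6 mRNAs were far lower, at 259 to 975 FPKM in sum per library, against 19278 to 41096 FPKM for the other 7, although all 6 lie on the same strand as most of those 7. Of the 6, 5 have a near-identical annotated copy in the nuclear genome. The search covered annotated nuclear genes only, and whether mt-Atp8, the other of the 6, has an unannotated copy was not tested. A row of 7 annotated pseudogenes on the minus strand of chromosome 1 (GRCm38, chr1:24611535-24616197) repeats mitochondrial sequence from within mt-Co1 to within mt-Nd4. Gm28661 matched the first 681 bases of mt-Co2, Gm10925 the first 678 of mt-Atp6, Gm28437 the first 783 of mt-Co3, Gm10222 the first 294 of mt-Nd4l and Gm28439 the first 876 of mt-Nd4 with no difference. Gm28438 differed from mt-Nd3 at 1 of 345 bases and Gm29216 from mt-Co1 at 1 of 483. The first 90 bases of mt-Nd3 (MT:9459-9548) and of Gm28438 (chr1:24613030-24613119, minus strand) show how little there is to tell a gene from its copy, and the differing base is in capitals (T3C, counted from the first base of mt-Nd3).
mt-Nd3: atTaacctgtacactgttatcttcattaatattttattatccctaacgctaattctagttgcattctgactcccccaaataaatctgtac
Gm28438: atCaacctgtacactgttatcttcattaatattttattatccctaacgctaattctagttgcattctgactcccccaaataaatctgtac

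Of all stretches of 100 bases in mt-Co2, mt-Atp6, mt-Co3, mt-Nd3 and mt-Nd4l, between 97.6% and 99.9% also occur in an annotated nuclear gene. The share was 60.8% in mt-Nd4, 30.8% in mt-Co1, 3.19% in mt-Nd2 and 0% in mt-Nd1, mt-Nd5, mt-Nd6, mt-Cytb, both rRNAs and mt-Atp8, a short gene that shares 43 bases with mt-Atp6. The gene mt-Co2, which carries the copper site that takes electrons from cytochrome c, had 101, 353 and 134 FPKM in the IR+LYC libraries, 116, 76.8 and 92.2 FPKM in the IR libraries and 224, 105 and 102 FPKM in the control libraries, and IR+LYC 2 was highest. Its copy Gm28661 had 51.7, 77.8 and 301 FPKM in the IR+LYC libraries, 56.5, 42.5 and 46.2 FPKM in the IR libraries and 62.3, 113 and 57.5 FPKM in the control libraries, and its highest value was in IR+LYC 3. The gene mt-Co3 averaged 130.3 ± 82.4 FPKM in IR+LYC, 62.2 ± 17.6 FPKM in IR and 77.8 ± 31.7 FPKM in control (SD, n = 3 each), and its copy Gm28437 had 209, 383 and 127 FPKM in the IR+LYC libraries, 135, 119 and 299 FPKM in the IR libraries and 148, 71.9 and 69.2 FPKM in the control libraries. For mt-Atp6, the proton channel subunit of ATP synthase, the means were 158 ± 81.4 FPKM in IR+LYC, 112 ± 54.5 FPKM in IR and 141 ± 50.2 FPKM in control. The highest value was thus in IR+LYC 2 for mt-Co2 and in IR+LYC 3 for its copy, while for mt-Co3 and its copy it was in IR+LYC 2 for both. The complex I genes mt-Nd3 and mt-Nd4l, lay at 28.0 to 80.2 FPKM and at 17.2 to 57.0 FPKM over the 9 libraries. In limma 0 of the 7 copies passed in any comparison, and 1 had an unadjusted p under 0.05 in IR against control (Gm10925), where 8.34% of all genes did, and 1 in IR+LYC against control (Gm28437), where 14.1% did. The treatment of reads that fit both places was not stated in the sources used here, so for these 5 genes, and for mt-Nd4 and mt-Co1 in part, the level of the mitochondrial transcript is uncertain. The genes mt-Atp8, mt-Ts1, mt-Td, mt-Tk, mt-Tg and mt-Tr lie within the same stretch, from mt-Co1 to mt-Nd4. Nuclear sequence between the annotated copies was not searched, so the levels of these genes can be uncertain in the same way. The part of shared sequence in the low levels was not tested.

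**Figure D3:**
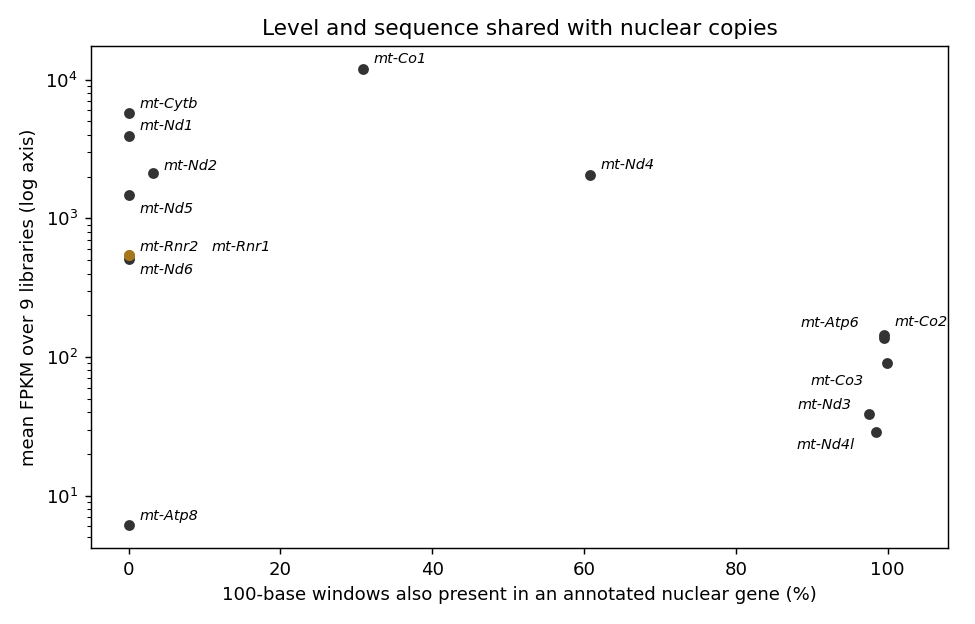
Mean level over the 9 libraries (FPKM, log axis) of each mitochondrial mRNA (dark points) and rRNA (brown points) against the percentage of its 100-base stretches that also occur in an annotated nuclear gene. The 5 genes at 97.6% to 99.9% lie below every gene at 0% other than mt-Atp8.

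The first comparison, IR against control, addresses the effect of irradiation alone. In IR intestine 12 of the 13 mRNAs and both rRNAs had a lower fitted mean than in control, and 12 of the 18 tRNAs tested had a higher one, but no member passed the test. Of these 18 tRNAs 11 averaged at least 10 reads per library, and the others fewer, down to 4 reads over all 9 libraries for mt-Ts1. The direction counts and medians of the tRNAs in all 3 comparisons include these sparse rows. The fit was limma on log2(FPKM + 1), over the 15391 genes that reached 0.5 FPKM in 3 libraries or more. A difference on this scale understates the change of low genes. The sparse mt-Tt had 0 reads in every control library and passed this filter only through irradiated libraries. Its higher direction was thus set by the filter, and it counts in the 12. In the same way mt-Ts1, with 0 reads in every IR library, could only be lower. Of the 37 members 33 were tested (all 13 mRNAs, both rRNAs and 18 tRNAs). Of these 0 had a limma adjusted p under 0.05, where 0.0195% of all genes did (3 genes), and 3 had an unadjusted p under 0.05 (mt-Th, mt-Ts2 and mt-Tg), against 8.34% of all genes. With limma-voom on the recovered reads 0 of 26 members passed after adjustment and 1 before it, and of all 16806 genes it tested 0 after and 1362 before.

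The mRNAs had a median log2 difference of -0.37, IR minus control, against -0.01 over all genes tested. It was -0.20 without IR 2 and -0.17 without control 1. The lowest was mt-Nd6, at -0.60 ± 0.44, limma adjusted p = 0.665 (SE after ±), and the only one above 0 was mt-Nd3, at 0.14 ± 0.31, limma adjusted p = 0.862. For mt-Co1 the log2 difference was -0.32 ± 0.33, limma adjusted p = 0.716, and for mt-Cytb -0.31 ± 0.29, limma adjusted p = 0.699. The gene mt-Nd4, a membrane-arm subunit of complex I, had 1935, 1419 and 1725 FPKM in the IR libraries, against 2565, 1977 and 2095 FPKM in the control libraries. Every IR library lay below every control library, though by a narrow margin between IR 1 and control 2. Its log2 difference was -0.39 ± 0.29, limma adjusted p = 0.667. It was the only mRNA whose groups did not overlap, where 14.0% of all genes tested did so in the lower direction. Scaled to recovered read totals, a scale that moved the median of all genes to 0.14, the median of the mRNAs was -0.16 and mt-Nd1 turned to 0.05.

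The 2 rRNAs form the small (mt-Rnr1) and large (mt-Rnr2) subunit of the mitochondrial ribosome. The level of mt-Rnr1 was 178, 667 and 264 FPKM in the IR+LYC libraries, 667, 242 and 671 FPKM in the IR libraries and 1171, 434 and 613 FPKM in the control libraries. That of mt-Rnr2 was 296, 719.6 and 281 FPKM in the IR+LYC libraries, 667, 246 and 697 FPKM in the IR libraries and 922, 461 and 642 FPKM in the control libraries. IR 2 was far below IR 1 and IR 3, which lay within the range of the controls. For IR against control the log2 difference was -0.51 ± 0.61, limma adjusted p = 0.752 for mt-Rnr1 and -0.42 ± 0.52, limma adjusted p = 0.762 for mt-Rnr2, and the median of both was 0.03 without IR 2, -0.14 without control 1 and -0.75 without control 2, and -0.26 when scaled to recovered read totals. The 3 libraries lowest in rRNA, IR 2, IR+LYC 1 and IR+LYC 3, were also the 3 lowest in enterocyte markers (3872, 1392 and 6674 FPKM), and the part of this in the rRNA level was not tested.

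The tRNAs mt-Th and mt-Tg, which had the fewest reads of the named tRNAs, are given in full because of their values. For the tRNAs the median log2 difference was 0.27, and 0.40 scaled to recovered read totals. It lay between 0.15 (without IR 1 or without control 2) and 0.52 (without IR 3). The tRNA for histidine, mt-Th, had 23, 29 and 15 reads in the IR libraries, against 7, 6 and 5 reads in the control libraries, which is 17.5, 19.2 and 12.2 FPKM in the IR libraries, against 5.94, 5.11 and 4.61 FPKM in the control libraries. Every IR library lay above every control library. Its log2 difference was 1.46 ± 0.35, limma adjusted p = 0.336, the smallest adjusted p among the members in this comparison. With the IR and control libraries alone in the fit the adjusted p was 0.031, and 0.650% of all genes passed there. The tRNA mt-Ts2, which reads the serine codons AGC and AGU, had 17, 36 and 27 reads in the IR libraries, against 9, 7 and 13 reads in the control libraries, again without overlap, with a log2 difference of 1.13 ± 0.40, limma adjusted p = 0.525. These 2 were the only members higher without overlap, where 14.1% of all genes were. The tRNA mt-Tg (glycine) had 10, 30 and 15 reads in the IR libraries, against 9, 6 and 6 reads in the control libraries, with IR 1 close to control 1, and a log2 difference of 0.93 ± 0.39, limma adjusted p = 0.582.

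**Figure D4:**
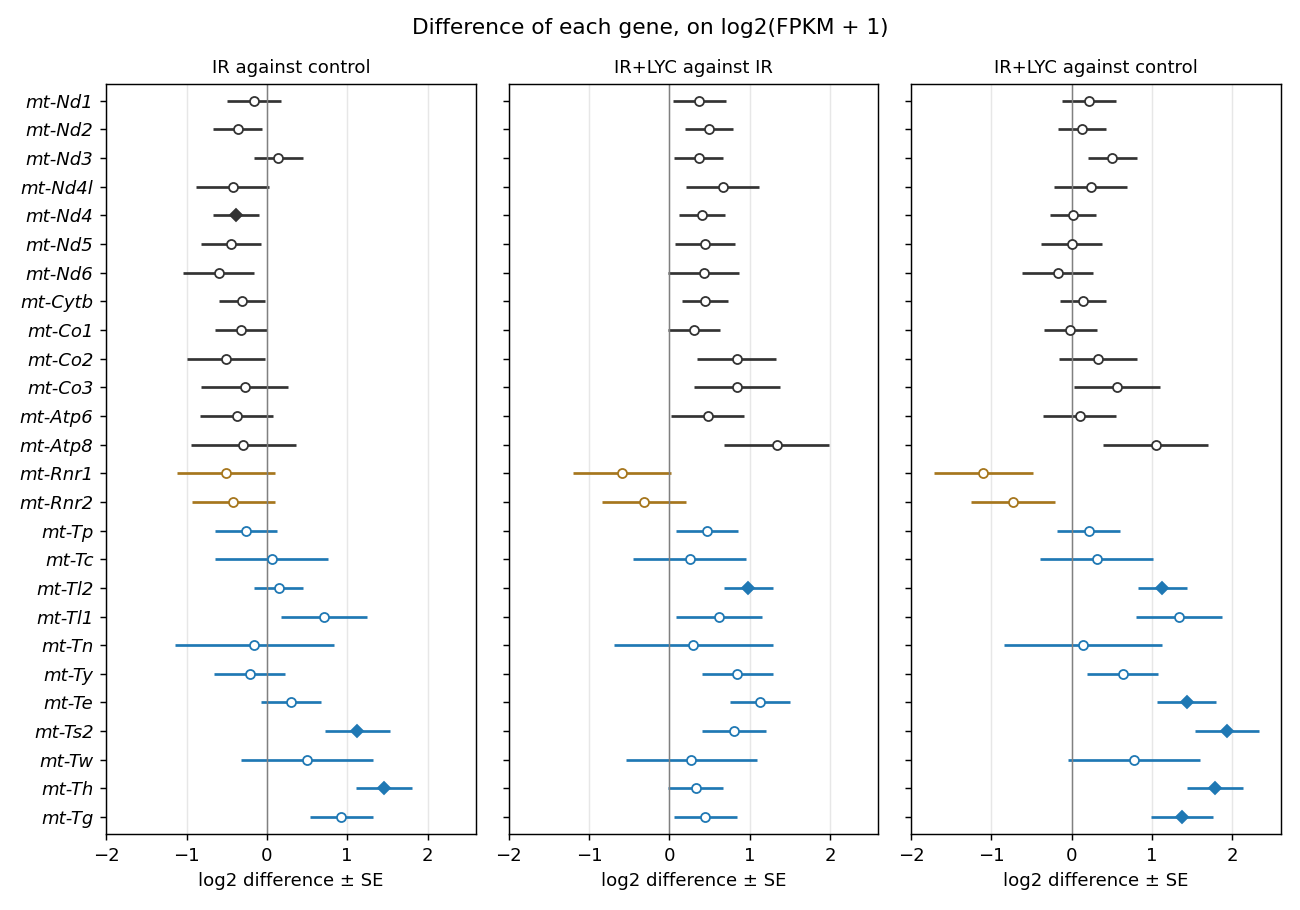
Log2 difference of each named member on log2(FPKM + 1), with its standard error, for IR against control, IR+LYC against IR and IR+LYC against control (mRNAs in black, rRNAs in brown, tRNAs in blue). Filled diamonds mark genes whose 2 groups do not overlap: mt-Nd4, mt-Ts2 and mt-Th in the first panel, mt-Tl2 in the second, and mt-Tl2, mt-Te, mt-Ts2, mt-Th and mt-Tg in the third.

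The second comparison, IR+LYC against IR, addresses what lycopene changed in irradiated mice. All 13 mRNAs had a higher fitted mean in IR+LYC than in IR, with a median log2 difference of 0.45 against -0.01 over all genes, and both rRNAs a lower one, with a median of -0.45. Of the 18 tRNAs tested 16 were higher, with a median of 0.46. No member passed the test, and neither did any other gene (0 of 15391, 0%); 4 members had an unadjusted limma p under 0.05 (mt-Ta, mt-Te, mt-Tl2 and mt-Tr), against 4.26% of all genes (655). With limma-voom 0 of 26 members passed after adjustment and 2 before it, and 0 of all genes after and 755 before.

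In FPKM no mRNA separated the groups. The gene mt-Cytb had 4748, 7939 and 6976 FPKM in the IR+LYC libraries, against 5402, 3983 and 4798 FPKM in the IR libraries, with IR+LYC 1 inside the IR range and IR+LYC 2 and 3 above it, and its log2 difference was 0.45 ± 0.29, limma adjusted p = 0.994. The gene mt-Nd4 had 1568, 3023 and 2335 FPKM in the IR+LYC libraries, against 1935, 1419 and 1725 FPKM in the IR libraries, in the same pattern, with a log2 difference of 0.41 ± 0.29, limma adjusted p = 0.994. For mt-Co1 the log2 difference was 0.31 ± 0.33, limma adjusted p = 0.994. The largest was that of mt-Atp8, a small ATP synthase subunit, at 1.34 ± 0.65, limma adjusted p = 0.994, on 22, 75 and 25 reads in the IR+LYC libraries, against 15, 5 and 16 reads in the IR libraries. All 13 directions held scaled to recovered read totals, and the median was 0.49 there. On that scale 8 of the 33 members, 2 of them mRNAs, had an unadjusted limma p under 0.05. Of all 15443 genes tested there, 500 did. After adjustment 0 members and 0 genes passed. Without IR+LYC 2 the median of the mRNAs was 0.19, and mt-Nd3 turned to -0.04.

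The tRNA mt-Tl2, which reads the leucine codons that begin with CU, had 149, 153 and 86 reads in the IR+LYC libraries, against 57, 70 and 56 reads in the IR libraries. Per length this is 74.2, 141 and 58.8 FPKM in the IR+LYC libraries, against 40.8, 43.8 and 43.0 FPKM in the IR libraries. Every IR+LYC library lay above the 3 IR libraries, which were close to each other, and the log2 difference was 0.99 ± 0.31, limma adjusted p = 0.994. The tRNA mt-Te had 91, 52 and 34 reads in the IR+LYC libraries, against 37, 23 and 15 reads in the IR libraries, with IR+LYC 3 just below IR 1, and a log2 difference of 1.13 ± 0.37, limma adjusted p = 0.994. Beside mt-Tl2, mt-Tr (arginine) was higher without overlap, where 4.25% of all genes were, and 0 members were lower without overlap, where 3.20% of all genes were. The tRNA mt-Tr, singled out after its values were seen, had 18, 14 and 9 reads in the IR+LYC libraries, against 8, 9 and 3 reads in the IR libraries. The alanine tRNA mt-Ta had 5, 2 and 1 reads in the IR+LYC libraries, against 0, 0 and 0 reads in the IR libraries. It passed the filter on low values only through the IR+LYC libraries, so its lack of overlap was largely set by the filter, and the same holds for its unadjusted p. The median of the tRNAs was 0.30 without IR+LYC 2 and 1.14 without IR+LYC 3, and that of the rRNAs lay between -0.94 (without IR+LYC 2 or without IR 2) and -0.14 (without IR+LYC 1).

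The third comparison set IR+LYC against control, so irradiation and lycopene cannot be told apart in it. Of the 18 tRNAs tested 17 had a higher fitted mean in IR+LYC, with a median log2 difference of 1.04, against -0.01 over all genes. Both rRNAs were lower, with a median of -0.91, and 10 of the 13 mRNAs were higher, with a median of 0.14. These 3 medians kept their direction scaled to recovered read totals, at 1.12, -0.67 and 0.38, where the median of all genes was 0.17. Of the 33 members 0 had a limma adjusted p under 0.05, where 0.0195% of all genes did, and 8 tRNAs had an unadjusted p under 0.05, against 14.1% of all genes. Among these 8 is mt-Ta, with 5, 2 and 1 reads in the IR+LYC libraries, against 1, 0 and 0 reads in the control libraries. It would not have passed the filter on low values without the IR+LYC libraries, so its unadjusted p was largely set by the filter. It also counts in the 17 and in the tRNA median. The tRNA mt-Tt counts in both too. With 0 reads in every control library, its higher direction was set by the filter. With limma-voom 0 of 26 members passed after adjustment and 5 before it, and of all 16806 genes 0 after and 2368 before. Without IR+LYC 2 the median was -0.16 for the mRNAs, -1.40 for the rRNAs and 0.60 for the tRNAs. With each library left out in turn it lay between -0.16 and 0.40 for the mRNAs (highest without IR+LYC 1) and between -1.40 and -0.59 for the rRNAs (highest without control 1). In all, 3 members passed the limma test without IR+LYC 2: mt-Th (log2 difference 1.78, adjusted p = 0.028), mt-Ts2 (1.57, adjusted p = 0.028) and mt-Tl2 (0.77, adjusted p = 0.033). In that fit 26.8% of all genes passed, 11.2% in the higher direction.

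The tRNA mt-Ts2 had 63, 58 and 28 reads in the IR+LYC libraries, against 9, 7 and 13 reads in the control libraries, or 37.8, 64.5 and 23.0 FPKM in the IR+LYC libraries, against 8.67, 6.76 and 13.6 FPKM in the control libraries. The lowest IR+LYC library held more than the highest control library, and the log2 difference was 1.93 ± 0.40, limma adjusted p = 0.202. The tRNA mt-Th had 66, 21 and 16 reads in the IR+LYC libraries, against 7, 6 and 5 reads in the control libraries, also without overlap, with a log2 difference of 1.79 ± 0.35, limma adjusted p = 0.202. The tRNA mt-Tl2 had 149, 153 and 86 reads in the IR+LYC libraries, against 60, 48 and 35 reads in the control libraries, with a log2 difference of 1.13 ± 0.31, limma adjusted p = 0.295. For mt-Te there were 91, 52 and 34 reads in the IR+LYC libraries, against 21, 12 and 16 reads in the control libraries, and the log2 difference was 1.43 ± 0.37, limma adjusted p = 0.285. With mt-Tg and mt-Tr, 6 of 33 members were higher without overlap, where 8.87% of all genes were, and 0 were lower, where 8.64% were. The log2 difference of mt-Rnr1 was -1.10 ± 0.61, limma adjusted p = 0.394, and that of mt-Rnr2 -0.73 ± 0.52, limma adjusted p = 0.467. In both rRNAs IR+LYC 2 lay within the range of the controls, and IR+LYC 1 and 3 below it. The mRNAs mt-Co1 (-0.02 ± 0.33), mt-Nd5 (-0.00095 ± 0.38) and mt-Nd6 (-0.17 ± 0.44) lay at or below 0, and all 3 turned to values above 0 scaled to recovered read totals (0.22, 0.24 and 0.07), on which scale the median of all genes was 0.17.

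Reads of a tRNA or rRNA, given per 100000 mitochondrial mRNA reads of the same library, need no scaling between libraries. On this measure mt-Th had 8.01, 2.52 and 1.93 reads in the IR+LYC libraries, 3.28, 5.01 and 2.56 reads in the IR libraries and 0.871, 1.0 and 0.838 reads in the control libraries. The IR+LYC and IR libraries overlapped, and all 6 lay above the 3 controls. For mt-Tl2 the numbers were 18.1, 18.4 and 10.4 reads in the IR+LYC libraries, 8.12, 12.1 and 9.54 reads in the IR libraries and 7.46, 8.02 and 5.86 reads in the control libraries. Every IR+LYC and IR library lay above all controls, if only just for IR 1. On this measure IR+LYC 3 lay below IR 2, so the IR+LYC and IR libraries overlapped for mt-Tl2, unlike in FPKM. Those of mt-Tr overlapped too, at 1.08 to 2.19 reads in IR+LYC and 0.511 to 1.56 reads in IR. The 3 neighbouring tRNAs mt-Th, mt-Ts2 and mt-Tl2 together held 278, 232 and 130 reads in the IR+LYC libraries, 97, 135 and 98 reads in the IR libraries and 76, 61 and 53 reads in the control libraries. Per 100000 mitochondrial mRNA reads that is 15.7 to 33.8 in IR+LYC, 13.8 to 23.3 in IR and 8.88 to 10.2 in control. The ratio of the mRNAs on either side, mt-Nd5 over mt-Nd4 per length, averaged 0.717 ± 0.197 in IR+LYC, 0.686 ± 0.0975 in IR and 0.709 ± 0.0446 in control (SD, n = 3 each), and there the groups overlapped. These 3 tRNAs were grouped after their values were seen, and no test was made of the sum.

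The tRNAs were also summed by the strand of the gene, again after their values were seen and with no test. The 14 tRNA genes on the plus strand together had 76.2, 49.0 and 23.0 reads in the IR+LYC libraries, 27.6, 41.5 and 33.2 reads in the IR libraries and 18.5, 16.9 and 16.3 reads in the control libraries per 100000 mitochondrial mRNA reads. All 6 irradiated libraries lay above the 3 controls. The 8 tRNA genes on the minus strand had 218, 279.5 and 163 reads in the IR+LYC libraries, 192, 169 and 231 reads in the IR libraries and 202, 171 and 171 reads in the control libraries on the same scale, and here the 3 groups overlapped. Most minus-strand reads were those of mt-Tp, which had 1271, 1823 and 1233 reads in the IR+LYC libraries, 1149, 817 and 1054 reads in the IR libraries and 1343, 902 and 857 reads in the control libraries and held 52.5% to 80.2% of all tRNA reads. Its log2 difference was -0.26 ± 0.39 for IR against control and 0.21 ± 0.39 for IR+LYC against control (SE after ±). The cysteine tRNA mt-Tc had 231, 277 and 47 reads in the IR+LYC libraries, 97, 90 and 186 reads in the IR libraries and 146, 72 and 84 reads in the control libraries, with the lowest and the highest value both in IR+LYC. The leucine tRNA mt-Tl1, next to mt-Rnr2, had 171, 95 and 32 reads in the IR+LYC libraries, 52, 47 and 53 reads in the IR libraries and 43, 17 and 23 reads in the control libraries, and IR+LYC 1 was highest. The asparagine tRNA mt-Tn had 121, 127 and 9 reads in the IR+LYC libraries, 33, 28 and 78 reads in the IR libraries and 71, 23 and 38 reads in the control libraries, and the groups overlapped. The tyrosine tRNA mt-Ty had 71, 45 and 31 reads in the IR+LYC libraries, 30, 21 and 23 reads in the IR libraries and 43, 12 and 27 reads in the control libraries. Its reads were higher in every IR+LYC library than in any IR library, but in FPKM the groups overlapped. The tryptophan tRNA mt-Tw ranged from 4 to 92 reads, with both ends in IR+LYC.

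Of the 22 tRNAs, 11 averaged at least 10 reads per library, 8 were read less often and 3 (mt-Tf, mt-Td and mt-Tk, for phenylalanine, aspartate and lysine) had 0 reads in every library, which allows up to 3 reads in a library by counting error alone. Of these, mt-Td and mt-Tk lie within the stretch spanned by the chromosome 1 copies. How reads with several matches were treated was not stated, and its part in these 0 counts was not tested. The 8 sparse ones had between 0 and 24 reads in a library, and the 24 were those of mt-Tt (threonine) in IR+LYC 1. Between 12 and 18 of the 22 genes had a read in a given library.

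**Figure D5:**
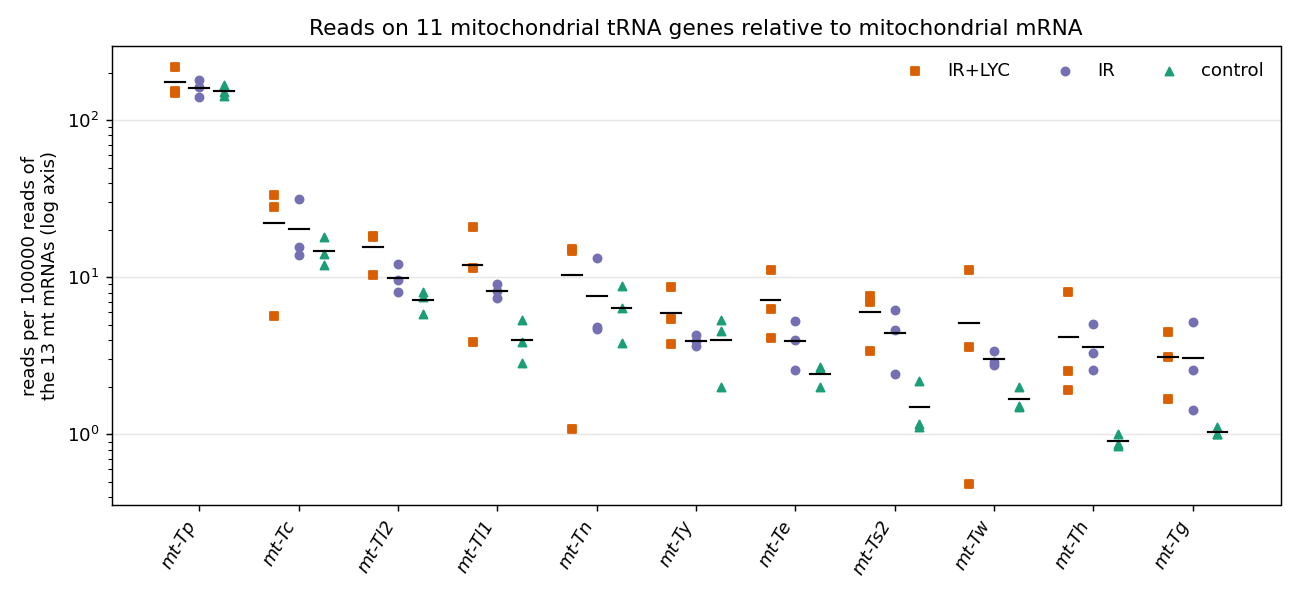
Reads on the 11 tRNA genes with a mean of at least 10 reads, per 100000 reads of the 13 mitochondrial mRNAs (log axis), 1 point for each library and a bar at each group's mean, with IR+LYC at the left, IR in the middle and control at the right of each gene. For mt-Th and mt-Ts2 every IR+LYC and IR point lies above every control point, and for mt-Tp the 3 groups lie over one another.

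The rRNAs ran the other way on this measure. The large rRNA mt-Rnr2 had 1606, 2082 and 1105 reads in the IR+LYC libraries, 2957, 1513 and 3445 reads in the IR libraries and 3191, 2138 and 2752 reads in the control libraries. All IR+LYC libraries lay below all controls, while IR libraries lay on both sides. For mt-Rnr1 the numbers were 585, 1165 and 627 reads in the IR+LYC libraries, 1783, 898 and 2000.3 reads in the IR libraries and 2448, 1214 and 1587 reads in the control libraries. Here too all IR+LYC libraries lay below all controls, while IR 2 lay below the controls and IR 1 and IR 3 within their range. As a share of all mitochondrial reads, rRNA made up 2.14, 3.14 and 1.70% in the IR+LYC libraries, 4.52, 2.35 and 5.15% in the IR libraries and 5.33, 3.24 and 4.15% in the control libraries, and IR+LYC 2 and control 2 were nearly level. Whether the libraries were selected for polyadenylated RNA or depleted of rRNA was not stated in the sources used here, and either step acts on these 2 genes.

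The nuclear genes that serve the mitochondrial genome were followed in 10 lists of 144 genes in all, and in the 3 comparisons 0 of them had a limma adjusted p under 0.05. Unadjusted, 1 of the 144 had p under 0.05 in IR against control, 9 in IR+LYC against IR and 27 in IR+LYC against control, beside 8.34%, 4.26% and 14.1% of all genes, and limma-voom gave 1, 8 and 27, with 0 after adjustment. Without IR+LYC 2, 34 of them passed in IR+LYC against control, 22 higher and 12 lower, beside 26.8% of all genes. The nuclear subunits of the same respiratory complexes (25 genes) had median log2 differences of -0.18 for IR against control, 0.05 for IR+LYC against IR and -0.15 for IR+LYC against control. In IR, 24 of the 25 lay below control, 8 of them without overlap, where 14.0% of all genes were, but scaled to recovered read totals the median turned to 0.02, where that of all genes was 0.14. For IR+LYC against control it turned to 0.09 on that scale, where that of all genes was 0.17, and for IR+LYC against IR it turned to -0.24 without IR+LYC 2. Their summed level was 3078, 6041 and 3798 FPKM in the IR+LYC libraries, 4135, 3404 and 4564 FPKM in the IR libraries and 4886, 4463 and 4579 FPKM in the control libraries, lowest in the 3 libraries that were lowest in enterocyte markers. The flavoprotein Sdha of complex II, which has no mitochondrially encoded subunit, had 101, 212 and 124 FPKM in the IR+LYC libraries, 141, 111 and 147 FPKM in the IR libraries and 177, 152 and 164 FPKM in the control libraries, and its log2 difference for IR against control was -0.31 ± 0.27, limma adjusted p = 0.689. For Atp5c1 of ATP synthase it was -0.29 ± 0.26, limma adjusted p = 0.693, and for Cyc1 of complex III -0.26 ± 0.23, limma adjusted p = 0.696.

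The tRNA synthetase list (20 genes) holds the enzymes that load amino acids onto mitochondrial tRNAs, and also Gatb, Gatc and Qrsl1, which are not synthetases. Its medians were 0.04 for IR against control, 0.18 for IR+LYC against IR and 0.21 for IR+LYC against control. All 20 lay above control in IR+LYC, 8 of them without overlap, where 8.87% of all genes were. The histidine enzyme Hars2 had 6.05, 7.27 and 6.13 FPKM in the IR+LYC libraries, 5.65, 5.29 and 5.77 FPKM in the IR libraries and 6.20, 6.34 and 6.23 FPKM in the control libraries. It was lowest in the IR libraries, with a log2 difference of -0.14 ± 0.09, limma adjusted p = 0.652 for IR against control and 0.18 ± 0.09, limma adjusted p = 0.994 for IR+LYC against IR. For Nars2 (asparagine) and Wars2 (tryptophan) the difference for IR against control was 0.21 and 0.19. The tRNA-modifying enzymes (13 genes) had medians of 0.06 for IR against control, 0.04 for IR+LYC against IR and 0.09 for IR+LYC against control, and Yrdc, Mto1 and Trmt5 differed by 0.21, 0.18 and 0.17 for IR against control.

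Factors that cut, polyadenylate, guard and degrade mitochondrial transcripts (21 genes) had medians of 0.06 for IR against control, 0.06 for IR+LYC against IR and 0.12 for IR+LYC against control. Ptcd1, a protein known to lower leucine tRNA precursors in human cells, had 6.26, 8.09 and 6.87 FPKM in the IR+LYC libraries, 6.76, 6.34 and 7.52 FPKM in the IR libraries and 7.96, 8.02 and 9.11 FPKM in the control libraries. Every IR library lay below every control library, and the log2 difference was -0.25 ± 0.12, limma adjusted p = 0.605. The catalytic subunit of mitochondrial RNase P, listed as 1110008L16Rik, had 4.62, 3.77 and 3.98 FPKM in the IR+LYC libraries, 3.83, 4.51 and 3.41 FPKM in the IR libraries and 3.50, 2.98 and 2.94 FPKM in the control libraries, with a log2 difference of 0.31 ± 0.12, limma adjusted p = 0.338 for IR+LYC against control. Fastkd2, which binds mitochondrial rRNA and mRNA, differed by 0.48 ± 0.15, limma adjusted p = 0.322 in the same comparison. Without IR+LYC 2, 5 of the 21 passed the limma test as higher there, where 11.2% of all genes did: the tRNA 3′ endonuclease Elac2, Fastkd2, Lrpprc, Rexo2 and Tbrg4. The transcription factors (9 genes) had medians of 0.04 for IR against control, 0.17 for IR+LYC against IR and 0.20 for IR+LYC against control. Mterf1b, of the termination factor family, had 1.47, 1.30 and 0.923 FPKM in the IR+LYC libraries, 1.0, 0.975 and 0.718 FPKM in the IR libraries and 0.416, 0.709 and 0.587 FPKM in the control libraries, without overlap between IR and control, and Mterf2 and Mterf4 differed in this comparison by -0.44 and 0.06.

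Genes for rRNA methylation and ribosome assembly (14 genes) had medians of 0.05 for IR against control, 0.17 for IR+LYC against IR and 0.18 for IR+LYC against control, and all 14 lay above control in IR+LYC while both rRNAs lay below it. The helicase Ddx28 had 5.61, 5.11 and 5.99 FPKM in the IR+LYC libraries, 3.98, 5.01 and 4.32 FPKM in the IR libraries and 3.64, 4.11 and 3.85 FPKM in the control libraries, and all IR+LYC libraries lay above all others; its log2 difference was 0.43 ± 0.10, limma adjusted p = 0.237 for IR+LYC against control. Nsun4 and Noa1 differed by 0.19 and 0.16 for IR against control. Genes for mitochondrial DNA replication and its nucleotides (16 genes) had medians of -0.02 for IR against control, 0.11 for IR+LYC against IR and 0.11 for IR+LYC against control. The topoisomerase Top1mt had 5.54, 3.44 and 4.68 FPKM in the IR+LYC libraries, 3.09, 4.52 and 3.28 FPKM in the IR libraries and 2.50, 2.62 and 2.90 FPKM in the control libraries, without overlap between IR and control, while Rrm2b, a ribonucleotide reductase subunit, and Ssbp1, the single-strand binding protein, differed by -0.16 and 0.21 for IR against control.

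Regulators of mitochondrial biogenesis (10 genes) had medians of -0.01 for IR against control, -0.09 for IR+LYC against IR and -0.07 for IR+LYC against control. The coactivator Ppargc1a had 1.12, 10.5 and 1.75 FPKM in the IR+LYC libraries, 4.55, 1.72 and 5.83 FPKM in the IR libraries and 11.2, 7.24 and 7.42 FPKM in the control libraries. Every IR library lay below every control library, and the log2 difference was -1.01 ± 0.62, limma adjusted p = 0.644. Its values rank with the enterocyte marker sums, IR+LYC 1, IR 2 and IR+LYC 3 being lowest in both. Esrra, a nuclear receptor that works with it, differed by -0.59 and Myc by 0.39 for IR against control. General mitochondrial proteins (8 genes) had medians of 0.14 for IR against control, 0.10 for IR+LYC against IR and 0.30 for IR+LYC against control. The import subunit Timm23 and the chaperones Hspa9 and Hspd1 differed by 0.25, 0.21 and 0.21 for IR against control, each higher without overlap, where 14.1% of all genes were. Of the 8 genes 1 was lower without overlap, where 14.0% of all genes were. Sensors that can detect mitochondrial DNA or RNA released into the cytosol (8 genes) had medians of -0.07 for IR against control, -0.26 for IR+LYC against IR and -0.35 for IR+LYC against control, and Mb21d1, Mavs and Irf3 differed by 0.31, -0.39 and -0.10 for IR against control. Scaled to recovered read totals the medians of the replication, biogenesis and sensing lists for IR against control turned to 0.13, 0.15 and 0.11, where that of all genes was 0.14, and that of the biogenesis list for IR+LYC against control to 0.13, where that of all genes was 0.17.

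The makeup of the tissue moved beside these genes, and its part in them was not tested. Enterocyte markers, which define the labelled tissue, were read in every library. All 12 had a lower fitted mean in IR than in control, in IR+LYC than in control and in IR+LYC than in IR, and 0 passed the limma test. Without IR+LYC 2, 9 of them passed as lower in IR+LYC against control, where 26.8% of all genes passed, and their median log2 difference was -3.20, against -2.03 with it. For IR+LYC against IR their median was -1.85 without IR+LYC 2, against -0.60 with it. Smooth muscle markers (10 genes, led by Myl9 and Actg2) summed to 2936, 565 and 1951 FPKM in the IR+LYC libraries, 1834, 1625 and 1364 FPKM in the IR libraries and 640.0, 745 and 838 FPKM in the control libraries; all 10 were higher in IR than in control without overlap, where 14.1% of all genes were, and 0 passed. Without IR+LYC 2, Actg2 and Des passed as higher in IR against control, where 98 of the 15391 genes passed, and 9 of the 10 passed as higher in IR+LYC against control, where 11.2% of all genes did. B and plasma cell markers (7 genes, led by Igkc and Igha) summed to 1488 to 7149.9 FPKM in IR+LYC, 1109 to 3264 FPKM in IR and 9001 to 14714 FPKM in control, and T cell markers (9 genes, led by Gzma and Gzmb) to 37.7 to 254 FPKM in IR+LYC, 87.7 to 176 FPKM in IR and 387 to 608 FPKM in control. Crypt markers (6 genes, led by Olfm4 and Top2a) summed to 317 to 662 FPKM in IR+LYC, 359 to 402 FPKM in IR and 309.7 to 353 FPKM in control, and red blood cell markers (5 genes, led by Hbb-bs and Hba-a1) to 30.9 to 232 FPKM in IR+LYC, 19.1 to 32.7 FPKM in IR and 40.8 to 70.8 FPKM in control. Of 9 pancreatic acinar markers only Clps was high enough to be tested, and the sums were 88.8 to 153 FPKM in IR+LYC, 75.7 to 111 FPKM in IR and 180.4 to 238 FPKM in control. Fabp6, a gene of the ileum, had 93.9, 0.274 and 419 FPKM in the IR+LYC libraries, 305, 1561 and 119 FPKM in the IR libraries and 0.593, 89.9 and 253 FPKM in the control libraries, and so differed as much within a group as between groups. It is 1 of 4 gut segment genes listed, of which 3 were tested and 0 passed. Their median log2 difference was -2.04 for IR+LYC against IR and -0.71 for IR+LYC against control. In the first of these comparisons 1 of the 3 was lower without overlap, where 3.20% of all genes were. In the second 1 was too, where 8.64% of all genes were.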

How the data were processed

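Intestinal total RNA of 9 libraries (3 IR+LYC, 3 IR, 3 control) was profiled by RNA-seq. The authors deposited 1 table of FPKM per gene. Reads were trimmed with fastp and aligned with HISAT2 2.0.5, per the submitters' processing notes. The counting tool, its strand setting, the treatment of reads with several matches, the library selection and the genome build are not given in the sources used here. Samples were grouped by their treatment labels and matched to columns by title. Every value above 0 (202261 of 202261) was a whole number of reads within 0.01 read once multiplied by gene length and divided by the value of 1 read, so read numbers were recovered, between 17803889 and 22414949 per library. Counting error and the limit of 3 reads that a count of 0 allows cover sampling of reads only.

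The main test was limma 3.58.1 (R 4.3.3) on log2(FPKM + 1) with a mean-variance trend, all 9 libraries in 1 model of the 3 groups, over the 15391 genes that reached 0.5 FPKM in 3 libraries or more, Benjamini-Hochberg adjusted at 0.05, and was tested on simulated data. A table of FPKM takes no count model as its main test, so limma-voom on the recovered reads with scaling factors by trimmed means served as an alternative. Other alternatives were a pseudocount of 0.1, no filter, a mean of at least 5 FPKM, 3 other scalings, no trend, fits of the 2 groups alone, the replicate number as a block, and leaving out each library. The members and lists were chosen with earlier results of these data known. Named were all mRNAs and rRNAs, the tRNAs with a mean of at least 10 reads, and of each nuclear list the 3 genes with the smallest limma p in IR against control. Some results of the nuclear lists are not reported here. Sequences are those of the GENCODE M21 transcripts (GRCm38), matched by gene ID for all 37 members, and positions in the deposited table are the same as in that annotation for these genes and their copies. Python 3.11.15, pandas 2.3.3, Biopython 1.88 and matplotlib 3.10.9 were used for the read recovery, the sequences and the plots.

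Samples with the same replicate number did not deviate together from their group means (correlations of 0.155, 0.375 and -0.04 between control and IR, and from -0.652 to 0.194 in the other pairs of groups), so the numbers were not used as pairs.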

Additional observations from a re-analysis of the deposited data

How the results depend on the processing

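The counts of calls, the class medians and the log2 differences of the named members were recomputed under 19 alternatives, as far as a gene passed each filter, and the share of reads on mitochondrial genes under 4. Of the values of single members under an alternative, 1421 kept their direction and their side of the threshold, 57 changed direction and 4 newly passed the threshold, and the cause of a change was not tested. Scaled to recovered read totals the log2 difference of mt-Nd1 turned to 0.046 and that of mt-Tn to 0.041 for IR against control, and those of mt-Co1, mt-Nd5 and mt-Nd6 to 0.22, 0.24 and 0.066 for IR+LYC against control. Rescaled without mitochondrial, immunoglobulin and pancreatic genes, the same 5 values were 0.021, 0.017, 0.22, 0.23 and 0.060. With limma-voom mt-Nd5 was at 0.037 for IR+LYC against control. With one library left out at a time, the log2 differences that changed direction for IR against control ranged from -0.24 to 0.013 for mt-Nd1, -0.54 to 0.026 for mt-Co3, -0.67 to 0.044 for mt-Nd4l, -0.54 to 0.13 for mt-Atp8, -0.68 to 0.073 for mt-Rnr2, -0.33 to 0.34 for mt-Tc, -0.016 to 0.30 for mt-Tl2, -0.66 to 0.23 for mt-Tn, -0.70 to 0.17 for mt-Ty and -0.026 to 0.54 for mt-Te. For IR+LYC against IR they ranged from -0.043 to 0.62 for mt-Nd3, -0.43 to 1.05 for mt-Tc, -0.53 to 1.49 for mt-Tn, -0.45 to 1.38 for mt-Tw and -0.047 to 0.71 for mt-Th. For IR+LYC against control they ranged from -0.22 to 0.23 for mt-Co1, -0.018 to 0.35 for mt-Cytb, -0.10 to 0.43 for mt-Nd1, -0.11 to 0.32 for mt-Nd2, -0.20 to 0.27 for mt-Nd4, -0.38 to 0.21 for mt-Nd5, -0.50 to 0.13 for mt-Nd6, -0.21 to 0.70 for mt-Co2, -0.29 to 0.40 for mt-Atp6, -0.16 to 0.71 for mt-Nd4l, -0.19 to 0.51 for mt-Tp, -0.37 to 1.11 for mt-Tc and -0.69 to 1.34 for mt-Tn. The median of the tRNAs for IR+LYC against IR lay between 0.30 and 1.14 with one library left out.

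The number of genes called for IR against control, 3 in the limma fit, was 1 with a pseudocount of 0.1, 7 with no filter, 1 at a mean of at least 5 FPKM, 100 with the 2 groups alone, 0 with limma-voom and 0 to 98 with one library left out. For IR+LYC against control, also 3, it was 0 with a pseudocount of 0.1, 6 with no filter, 1 at a mean of at least 5 FPKM, 1 scaled to recovered read totals, 1 when rescaled, 1 with the 2 groups alone, 0 with limma-voom and 0 to 4120 with one library left out, the highest being without IR+LYC 2. The members called numbered 1 for IR against control with the 2 groups alone (mt-Th) and 0 to 3 for IR+LYC against control with one library left out, and 0 otherwise. With the replicate number as a block, 0 genes and 0 members were called in each comparison, and the numbers do not pair the samples. Depth limits the tRNAs most, since 11 of 22 average fewer than 10 reads.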
